A study of Mus musculus with 4 samples.

Results

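The genes examined are 5 mouse genes known to respond to androgens in Sertoli cells: Rhox5, Rhox8, Eppin, Drd4 and Aard. They were taken by symbol from a list of known androgen-regulated Sertoli cell genes, and all 5 were found among the 49492 gene rows of the count table. Gene expression had been measured by RNA sequencing of whole testis from male C57BL/6J mice in 4 libraries. By the labels, 2 libraries carried a Spry1 knockdown by short hairpin RNA (shSpry1) and 2 carried a control hairpin (shControl, genotype given as WT), and all 4 had been given LPS, a bacterial lipopolysaccharide that activates innate immunity. The sources used here do not give the age of the mice, the dose of LPS, the time after it, the route of the hairpin or the cells it reached. Whether replicates were separate animals is not in the labels, and p-values therefore measure only how far these libraries spread, which may be technical.

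In the deposited table the headings of the counts are LPS and NC, each with a number. Here NC was taken to be the control hairpin and LPS the Spry1 knockdown, although LPS is part of all 4 sample titles. The headings could also stand for LPS given against LPS not given, and all differences would then be those of that treatment. For this reason groups are named by their headings, as LPS columns and NC columns. A positive log2 fold change means a higher level in the LPS columns.

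Testosterone is made by Leydig cells between the seminiferous tubules and acts on Sertoli cells, the somatic cells inside the tubules that carry the germ cells through meiosis and spermatid release. Sertoli cells answer the hormone by changing the transcription of a set of genes, and germ cells themselves do not need to sense it. Rhox5 (formerly Pem) and Rhox8 encode homeobox transcription factors of the reproductive homeobox cluster on the X chromosome, and Rhox5 is the classical androgen-induced gene of the Sertoli cell. Eppin encodes a protease inhibitor with a WAP and a Kunitz domain that coats sperm, Drd4 encodes a dopamine receptor, and Aard encodes a small protein named for its alanine- and arginine-rich domain.

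Androgen response elements of the classical form are inverted repeats, and related steroid hormones use the same letters. Only this form and its parts were searched for, so a missing match does not mean that an element is missing. RefSeq start sites, on GRCm38.p6, were matched for 3 of the 5 genes, and the sequence before each start is shown. For Rhox8 and Aard no such sequence was at hand. Capitals mark matches to the core of the inverted repeat, GAACNNNNNGTTC, or to a single arm of it, TGTTCT, on either strand. The core and the arm can overlap.
Eppin, chr2:164593595-164593821, minus strand: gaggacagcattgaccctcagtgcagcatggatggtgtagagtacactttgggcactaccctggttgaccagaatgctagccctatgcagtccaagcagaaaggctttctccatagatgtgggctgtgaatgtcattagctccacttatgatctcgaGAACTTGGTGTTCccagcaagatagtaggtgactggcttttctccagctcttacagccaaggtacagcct
Rhox5, chrX:37754358-37754607, plus strand: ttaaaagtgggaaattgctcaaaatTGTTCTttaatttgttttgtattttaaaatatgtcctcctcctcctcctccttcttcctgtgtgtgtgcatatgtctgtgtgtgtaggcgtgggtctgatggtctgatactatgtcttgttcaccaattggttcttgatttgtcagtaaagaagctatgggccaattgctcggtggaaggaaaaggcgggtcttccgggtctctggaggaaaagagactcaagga
Drd4, chr7:141291768-141291973, plus strand: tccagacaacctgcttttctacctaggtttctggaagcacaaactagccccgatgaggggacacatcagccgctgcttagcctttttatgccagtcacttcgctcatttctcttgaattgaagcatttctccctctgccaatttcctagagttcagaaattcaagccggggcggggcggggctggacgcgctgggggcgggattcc

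The Eppin stretch held the core as GAACTTGGTGTTC, beginning 93 bases before the RefSeq start. Of 32851 promoter windows of 300 bases, 0.368% held the core and 19% held an arm, while the full repeat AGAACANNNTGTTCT was in 3 windows and in none of these genes. The Rhox5 stretch held 1 arm, 225 bases before the RefSeq start, and the Drd4 window held neither motif. The window of Eppin also held 1 arm, outside the stretch printed. The RefSeq start of Rhox5 lies 50234 bases before the gene model that was counted, so this window is not next to the counted exons. These matches describe the letters alone, the motifs were chosen after the sequences had been seen, and binding was not measured.

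The 5 genes are protein-coding in GENCODE M21. In mm10 coordinates, Rhox5 (ENSMUSG00000095180.8) lies on chromosome X from 37804842 to 37808876 on the plus strand, and Rhox8 (ENSMUSG00000064137.6) on X from 37874778 to 37878944 on the minus strand. Eppin (ENSMUSG00000017733.4) lies on chromosome 2 from 164588343 to 164593594 on the minus strand, Drd4 (ENSMUSG00000025496.5) on chromosome 7 from 141292006 to 141296464 on the plus strand, and Aard (ENSMUSG00000068522.4) on chromosome 15 from 52040107 to 52045722 on the plus strand. No other gene row of the table overlapped any of them. None of the 50-base stretches in the transcripts of Rhox5, Eppin, Drd4 or Aard occurred in a transcript of another gene, and 4.9% of those of Rhox8 did.

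Libraries held 17612342 to 22451132 counts, and counts were scaled with TMM factors to CPM, the counts relative to the scaled library total. Spry1, the targeted gene, was lower, with counts of 26 and 17 against 45 and 41 in the NC libraries (log2 fold change -0.82 ± 0.28 SE; edgeR quasi-likelihood test, Benjamini-Hochberg adjusted p = 0.0212). DESeq2 did not call it (adjusted p = 0.249), nor did edgeR without LPS replicate 2 or either NC replicate. These counts had been seen before the headings were read as groups and are no check of that reading. Over all genes 31.5% of 20855 tested were called at an adjusted p under 0.05, with 15.2% higher and 16.3% lower in the LPS columns, and the 2 groups did not overlap in 64.1% of genes. Higher calls were 48.3% of all calls, and 62% when only library size was used for scaling. Counting error for a count of 0 in 1 library allows up to 0.134 to 0.170 CPM.

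Of the 5 androgen-regulated Sertoli cell genes, 4 were higher in the LPS columns, none was lower and Drd4 was not called, where 15.2% of all tested genes were called higher. Among 17 Sertoli cell markers 8 were higher. The 5 genes were chosen with earlier results of these data known, so these shares are descriptions and no test. All 5 passed the filter on low counts. Rhox5 had the largest fold change of the 5, followed by Eppin, Rhox8 and Aard. Their median log2 fold change was 0.39, against 0.00 (0.0023 before rounding) for all genes tested. Whole testis was sequenced, so more Sertoli cells and more RNA per Sertoli cell cannot be told apart.

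Rhox5 was at 33.2 and 32.4 CPM in the LPS libraries and at 17.9 and 22.0 CPM in the NC libraries (replicate 1 first, as throughout). Both LPS libraries lay above both NC libraries (no overlap, as in 64.1% of all tested genes), and the NC pair was the more spread. The means were 32.8 ± 0.61 CPM and 19.9 ± 2.95 CPM (SD, n = 2 per group), a ratio of 1.64. The log2 fold change was 0.72 ± 0.09 (SE), with edgeR's Benjamini-Hochberg adjusted p = 4.16e-08. Each of the 4 LPS to NC pairs of libraries gave a log2 ratio of 0.56 to 0.90, larger than the log2 ratio of replicate 1 to 2 within either group (0.04 in the LPS columns and -0.30 in the NC columns). The call held under each of the 11 alternative settings, with log2 fold changes of 0.52 to 0.88. Of all tested genes, 88.5% had a smaller absolute fold change.

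Rhox8, the second homeobox gene, was at 250.7 and 241.7 CPM in the LPS columns and at 170.4 and 205.1 CPM in the NC columns. The groups did not overlap, as in 64.1% of all tested genes, and NC replicate 1 was the lowest library. The means were 246.2 ± 6.41 CPM and 187.7 ± 24.6 CPM (SD, n = 2 per group), a ratio of 1.31. The log2 fold change was 0.39 ± 0.06 (SE; edgeR, Benjamini-Hochberg adjusted p = 4.14e-06). Its pairs of libraries gave log2 ratios of 0.24 to 0.56, and the lower end is smaller than the gap of -0.27 between NC replicates 1 and 2. The call held under all 11 alternatives, with values of 0.19 to 0.53 and a highest adjusted p of 0.0246 with DESeq2 (Benjamini-Hochberg). The value was 0.27 without NC replicate 1.

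Eppin, the sperm-coating protease inhibitor gene, was at 15.0 and 13.5 CPM in the LPS columns and at 9.86 and 11.3 CPM in the NC columns, from 295 and 241 counts against 217 and 232. The groups did not overlap, as in 64.1% of all tested genes. The means were 14.2 ± 1.04 CPM and 10.6 ± 1.02 CPM (SD, n = 2 per group), a ratio of 1.34. The log2 fold change was 0.43 ± 0.11 (SE; edgeR, Benjamini-Hochberg adjusted p = 0.00272). DESeq2 did not call it (Benjamini-Hochberg adjusted p = 0.0692). Without NC replicate 1 edgeR gave 0.34 (Benjamini-Hochberg adjusted p = 0.0570), also not called, within a range of 0.000796 to 0.0912 over the alternatives.

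Aard was at 72.2 and 56.6 CPM in LPS replicates 1 and 2 and at 54.6 and 52.7 CPM in the NC columns. The groups did not overlap, as in 64.1% of all tested genes. LPS replicate 2, however, lay much nearer to the NC columns than to LPS replicate 1. The means were 64.4 ± 11.1 CPM and 53.7 ± 1.31 CPM (SD, n = 2 per group), a ratio of 1.20. The log2 fold change was 0.27 ± 0.08 (SE; edgeR, Benjamini-Hochberg adjusted p = 0.00680). Without LPS replicate 1 it was 0.077 (edgeR, Benjamini-Hochberg adjusted p = 0.540), and without LPS replicate 2 it was 0.43. DESeq2 did not call it either (Benjamini-Hochberg adjusted p = 0.359), in a range of 1.04e-06 to 0.540 over the alternatives. Pairs of libraries gave log2 ratios of 0.05 to 0.45, against 0.35 between the LPS replicates, so the difference in Aard was not larger than the spread between replicates.

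Drd4, the dopamine receptor gene, was at 2.54 and 2.52 CPM in the LPS columns and at 2.41 and 2.68 CPM in the NC columns, from 50 and 45 counts against 53 and 55. The groups overlapped, with both LPS libraries between the NC libraries. The log2 fold change was -0.01 ± 0.22 (SE; edgeR, Benjamini-Hochberg adjusted p = 0.986), with a 95% interval of -0.45 to 0.43. That interval contains the fold changes of Rhox8 and Aard and, at its upper end, that of Eppin. A change of their size in Drd4 was therefore not detectable at this depth. Of the other dopamine receptor genes, Drd1 and Drd3 had no counts, Drd5 had 2 to 5 counts per library, and Drd2 was not called (0.33 ± 0.17; edgeR, Benjamini-Hochberg adjusted p = 0.134).

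**Figure D1:**
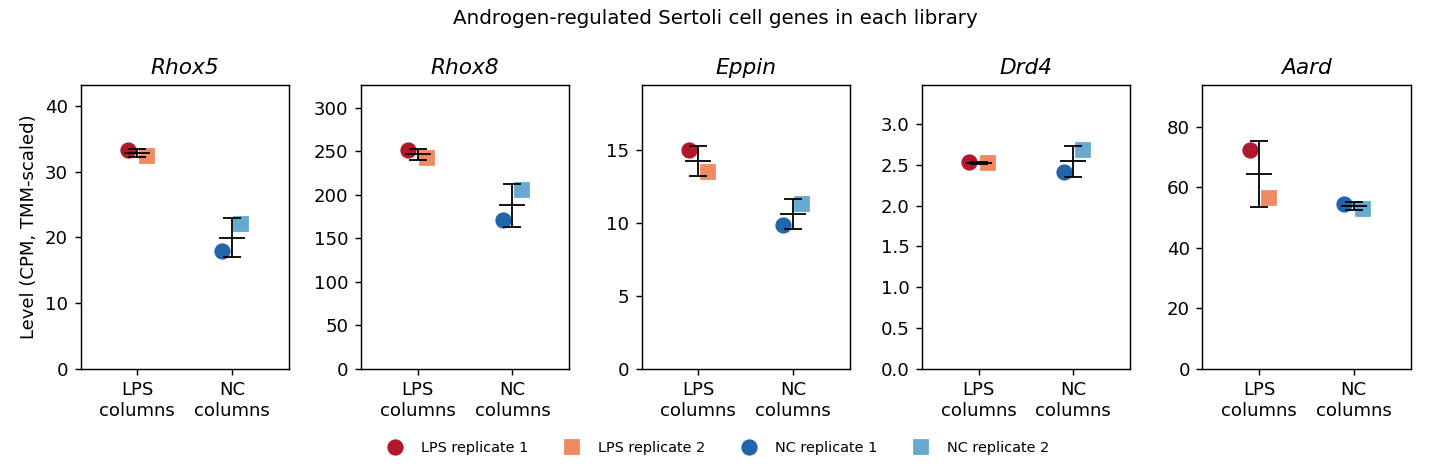
Level of each gene in each library in TMM-scaled CPM, with the mean and SD (bars, n = 2) of each group; each panel has its own axis from 0. The LPS and NC libraries of Rhox5, Rhox8, Eppin and Aard do not overlap, as in 64.1% of all tested genes. Those of Drd4 do overlap, and LPS replicate 2 of Aard (56.6 CPM) lies near the NC libraries.

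Levels between genes were compared per length, as CPM per kb of the counted exons. In the NC columns Rhox8 was the most abundant at 155.9 ± 20.4, followed by Aard at 39.8 ± 0.97, Rhox5 at 26.4 ± 3.91, Eppin at 13.6 ± 1.31 and Drd4 at 0.753 ± 0.057 CPM per kb (SD, n = 2). Adjacent genes in that order did not overlap between libraries of the NC columns. In the LPS columns the levels were 204.5 ± 5.32 for Rhox8, 47.8 ± 8.20 for Aard, 43.5 ± 0.81 for Rhox5, 18.3 ± 1.34 for Eppin and 0.748 ± 0.003 CPM per kb for Drd4. There Aard, at 53.5 and 42.0, spanned Rhox5, at 44.1 and 42.9 CPM per kb, so these genes did not differ in level beyond their spread. By its mean level per kb, Rhox8 stood at or above 98.4% of tested genes and Drd4 at or above 21.3%.

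**Figure D2:**
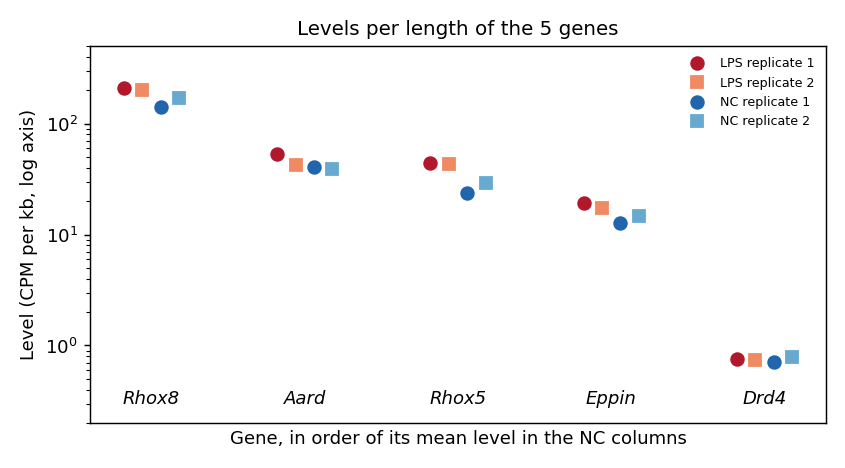
Level of each gene per length in each library, in CPM per kb on a log axis, in order of the NC mean. Rhox8 is highest in every library and Drd4 lowest, and Aard and Rhox5 exchange places between libraries of the LPS columns.

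Other genes reported as androgen-responsive in Sertoli cells were listed from general knowledge: Tubb3, Serpina5, Gpd1, Cldn3, Ocln, Defb36, Defb45 and Tsx. All 8 were tested, 2 were higher, 0 lower and 6 not called, with a median log2 fold change of 0.16. Among all tested genes, 15.2% were called higher and 16.3% lower. Serpina5, an inhibitor of serine proteases, was higher by 0.21 ± 0.07 (SE; edgeR, Benjamini-Hochberg adjusted p = 0.0233). Tsx, an X-linked testis gene, was higher by 0.25 ± 0.10 (adjusted p = 0.0495 by the same test). Both calls were lost with DESeq2 and without LPS replicate 1, LPS replicate 2 or NC replicate 1, and that of Tsx also with no filter and without NC replicate 2. They were lost as well when libraries were scaled so that Sertoli cell markers had a median fold change of 0, with Serpina5 at 0.012 and Tsx at 0.053, and 0 genes of this list were then higher and 3 lower. Tubb3, a neuronal-type tubulin, was at 0.18 ± 0.09 and Gpd1, a glycerol phosphate dehydrogenase, at 0.15 ± 0.08, and neither was called, although Tubb3 was called higher with library size scaling (0.24; edgeR, Benjamini-Hochberg adjusted p = 0.0387).

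Sertoli cell markers were measured beside these genes. Of 17 tested markers, 8 were higher, 1 lower and 8 not called, with a median log2 fold change of 0.20, and every marker had counts. Cst9, a cystatin of Sertoli cells, was higher by 2.51 ± 0.12 (SE), Gata1 by 0.83 ± 0.14 and Sox9, the factor that sets Sertoli cell fate, by 0.54 ± 0.08. Trf, the transferrin gene, was lower by edgeR's test (log2 fold change -0.47 ± 0.17), a call lost with DESeq2, with library size scaling, and without LPS replicate 2 or NC replicate 2. The summed level of the markers was 1141 to 1170 CPM in the LPS columns and 874 CPM in both NC libraries. Clu, named after its values were seen, made up most of this sum, at 765 to 774 CPM against 557 to 563 CPM. Scaling the libraries so that the median fold change of these markers was 0 moved the median of all genes to -0.20. On that scale Rhox5 remained higher by 0.52 ± 0.09 (SE; edgeR, Benjamini-Hochberg adjusted p = 8.37e-06) and Rhox8 by 0.19 ± 0.06 (adjusted p = 0.0104). Eppin was at 0.23 ± 0.11 (adjusted p = 0.0912), Aard at 0.066 ± 0.076 (adjusted p = 0.518) and Drd4 at -0.21 ± 0.22 (adjusted p = 0.469), none of them called. The shift was taken as exact, so its own error is not in these SEs. Before that scaling the markers ran from -0.47 to 2.51, a range that contains Rhox5 (0.72) and Rhox8 (0.39).

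Genes of testosterone synthesis and its hormone control were mostly lower. The list holds enzymes that make testosterone, enzymes that convert it onward (Srd5a1 and Cyp19a1), the receptor gene Lhcgr and the binding protein gene Shbg. Of its 10 tested genes, 6 were lower, 2 higher and 2 not called, with a median log2 fold change of -0.81 (-0.815 before rounding). Cyp17a1, which converts progestins to androgens, was lower by edgeR's test (log2 fold change -2.46 ± 0.07), as were Hsd3b6 (-1.87 ± 0.10), Hsd17b3 (-1.26 ± 0.07) and Star (-1.19 ± 0.07), the cholesterol importer of mitochondria. The genes that were higher, named after their values were seen, were Cyp11a1 (0.26 ± 0.07), a call lost with DESeq2, without LPS replicate 2 and with Sertoli marker scaling (0.064), and Shbg (0.71 ± 0.15), which in the mouse testis encodes an androgen-binding protein secreted by Sertoli cells. Hormone levels were not measured, and no test related the genes of synthesis to those of the Sertoli cell.

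Chaperones and coregulators of steroid hormone signalling had calls in both directions. Of 19 tested genes, 3 were higher, 3 lower and 13 not called, with a median log2 fold change of 0.05. Of all tested genes, 15.2% were called higher and 16.3% lower. Among the lower genes were Pias1 (-0.41 ± 0.06) and Pias2 (-0.16 ± 0.06), SUMO ligases that modify nuclear receptors. The higher genes were Hsp90ab1, a chaperone (0.23 ± 0.05), Rnf4, a ubiquitin ligase (0.22 ± 0.06), and Ncoa3, a coactivator (0.21 ± 0.08). Library size scaling gave 7 higher, and Sertoli marker scaling gave 0 higher and 10 lower. Pias2 and Ncoa3 were named after their values were seen. The Pias2 call was lost with library size scaling (-0.092), with DESeq2 and without LPS replicate 2 or either NC replicate, and the Ncoa3 call with DESeq2 and without LPS replicate 2 or NC replicate 2.

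**Figure D3:**
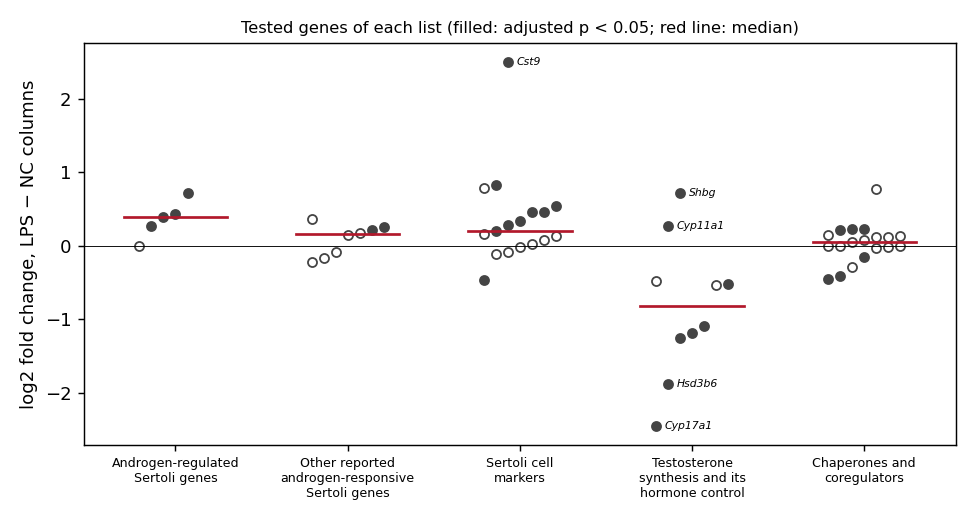
Log2 fold change (LPS minus NC columns) of every tested gene of 5 lists, with filled points for calls at an adjusted p under 0.05 and a red line at each list's median. The androgen-regulated Sertoli genes lie between -0.01 and 0.72, while the genes of testosterone synthesis and control reach down to -2.46.

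Markers of other cells in the testis also differed, where 15.2% of all tested genes were called higher and 16.3% lower. Of 6 Leydig cell markers 3 were lower and 1 higher, and their summed level was 412 to 470 CPM in the LPS columns against 737 to 777 CPM in the NC columns. All of them except Insl3 are also in the list of testosterone synthesis, so those genes are counted in both lists. Insl3, named after its values were seen, was not called (log2 fold change -0.07 ± 0.06 SE). Of 5 peritubular myoid markers 4 were higher, at 308 to 312 CPM against 204 to 217 CPM in sum. Of 9 germ cell markers 5 were lower, 1 higher and 3 not called, at 10776 to 11479 CPM against 15628 to 16338 CPM in sum. Prm2, a protamine gene of late spermatids, made up most of this sum, at 6422 to 6583 CPM against 10073 to 10898 CPM. Of 6 macrophage and leukocyte markers 3 were higher and 2 lower, and of 5 endothelial markers 3 were higher. Epididymis markers, checked because Rhox5 and Eppin are also expressed in that organ, had no counts for Lcn8, Lcn5, Adam7, Rnase10 and Spag11b, and the whole list of 8 summed to 0.101 to 0.390 CPM per library. The part of these other cell types in the differences of the 5 genes was not tested.

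Rhox5 and Rhox8 were higher while Rhox3 genes of the same X-linked cluster were lower. The table held 42 Rhox rows, pseudogenes included, of which 23 were tested. Of these, 4 were higher, 9 lower and 10 not called, against 15.2% higher and 16.3% lower over all tested genes. Besides Rhox5 and Rhox8, the higher genes were Rhox2-ps (1.16 ± 0.29), the nearest row before Rhox5 at a distance of 121411 bases, and Rhox4e (2.32 ± 0.60), with 11 and 12 counts against 2 and 3. Both of these calls were lost with DESeq2, and that of Rhox4e also without LPS replicate 2 or NC replicate 1. Of 9 Rhox3 rows, 8 were tested and all 8 were lower, with log2 fold changes from -1.22 for Rhox3b-ps and -1.21 for Rhox3d-ps to -0.59. Library size scaling also called 8 lower, while DESeq2 called 5 and edgeR without NC replicate 2 called 6. None of the Rhox2 rows was lower, and of 7 tested 1 was higher. Rhox2, Rhox3 and Rhox4 rows are near-identical copies, so their counts are uncertain.

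**Figure D4:**
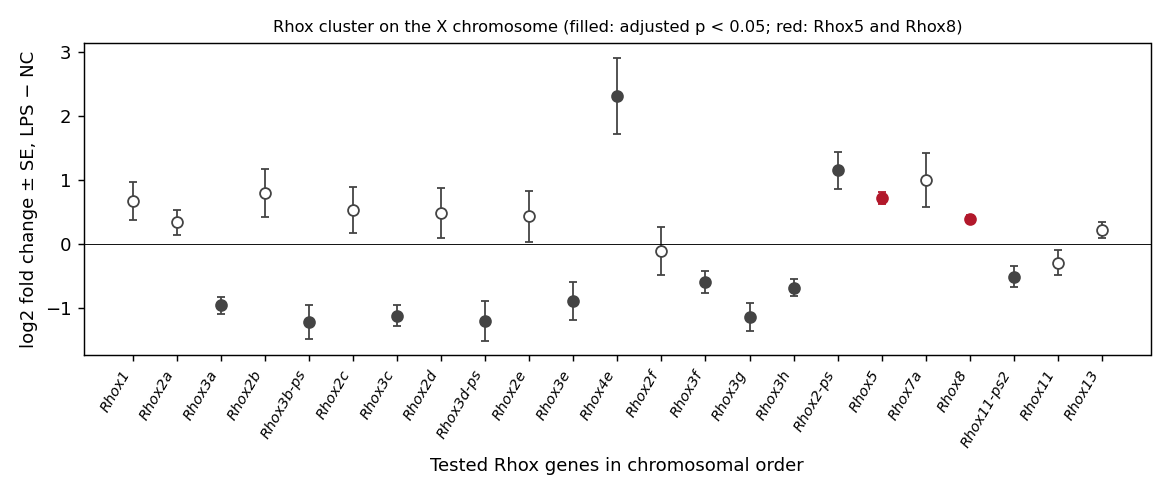
Log2 fold change with its SE for the 23 tested Rhox rows in chromosomal order, filled where the adjusted p was under 0.05 and red for Rhox5 and Rhox8. All 8 tested Rhox3 rows lie below 0, and Rhox5 (0.72) and Rhox8 (0.39) lie above it.

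Direct neighbours were read from the table's own coordinates. Eppin lies in a cluster of WAP and Kunitz inhibitor genes, between Wfdc6a and Wfdc8 on the same strand. Wfdc6a was at 0.16 ± 0.16 and Wfdc8 at 0.63 ± 0.25 (log2 fold change, SE), and neither was called (edgeR, Benjamini-Hochberg adjusted p = 0.466 and 0.0545). Of 11 tested WAP and Kunitz genes, Eppin was the only one called higher by edgeR with TMM scaling. Over all tested genes, 15.2% were called higher and 16.3% lower. Wfdc8 was called as well with library size scaling, with the filter at 1 CPM and with the replicate block. Wfdc3 (-0.56 ± 0.12) and Spint2 (-0.24 ± 0.09) were lower, and Wfdc10 (0.25 ± 0.16) and Wfdc1 (-0.11 ± 0.13) were not called. The Spint2 call was lost with DESeq2, with library size scaling, with no filter and without LPS replicate 2 or either NC replicate. The neighbours of Drd4, Sct (-0.16 ± 0.27; -0.155 before rounding) and Deaf1 (0.00 ± 0.11; 4e-04 before rounding), were not called. Rad21, a cohesin subunit gene 48347 bases before Aard, was higher by 0.30 ± 0.05, and was not called with Sertoli marker scaling (0.10).

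Genes with the most similar pattern were found by the Euclidean distance between log2 CPM profiles, centred over the 4 libraries, among 18129 genes of at least 1 CPM. The nearest were Chic1 (0.03) and Padi2 (0.03) to Rhox5, Rassf5 (0.03) and Hist2h2be (0.03) to Rhox8, Gm2093 (0.04) and Asz1 (0.04) to Eppin, Eapp (0.01) and Zcrb1 (0.02) to Drd4, and Mtx3 (0.03) and Tmem204 (0.03) to Aard. With only 4 libraries and so many genes, such small distances describe likeness and carry no test.

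**Figure D5:**
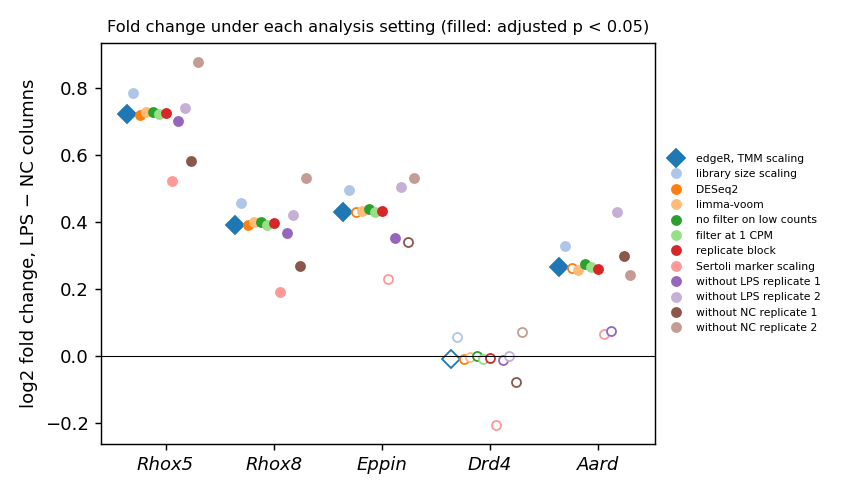
Log2 fold change of each gene under edgeR with TMM scaling (diamond) and under 11 alternative settings (circles), filled where the adjusted p was under 0.05. Rhox5 and Rhox8 are filled throughout, Eppin and Aard each have 3 open points, and Drd4 is open throughout.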

How the data were processed

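RNA of 4 testis libraries was extracted with TRIzol and prepared with a stranded mRNA kit, per the labels' protocols. The deposited values are raw counts per gene, in a table with the leading columns of featureCounts output. The submitters' processing notes name STAR 2.5.3a, Trimmomatic 0.36, Subread 1.5.1 with featureCounts, DESeq and edgeR 3.12.1, and build mm10, without roles. The sources used here give neither the strand setting nor the annotation release.

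From these counts, genes were filtered with filterByExpr, scaled by TMM and tested over the whole table with the quasi-likelihood test of edgeR 4.0.16 in R 4.3.3, with Benjamini-Hochberg adjustment and 0.05 as the limit for a call. With 2 residual against 34 prior degrees of freedom, a gene's spread came mainly from other genes. The SE is the one implied by the F statistic. Alternatives were DESeq2 1.42.0, limma-voom (limma 3.58.1), library size scaling, no filter, a filter at 1 CPM in 2 libraries, a replicate block, scaling to Sertoli cell markers and leaving out each library. The test was also run on simulated data. No error rate or power from that run is given here, so it does not vouch for the calls. Replicates differed by more than sampling noise (chi-square per degree of freedom of 2.31 and 2.20). Of gene rows, 86.7% matched GENCODE M21 by coordinates and symbol.

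The members and lists were chosen with earlier results of these data known. From the other lists, up to 4 genes were named: the called ones with the largest absolute log2 fold change, then the most abundant of those not called. Names outside this rule are marked, apart from genes named for few or no counts or to say what a list holds. Neighbours and similar patterns follow position and distance. A gene of the list of chaperones and coregulators is counted but not reported here by name.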

Additional observations from a re-analysis of the deposited data

How the results depend on the processing

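Of the 5 genes, 4 were called higher with library size scaling, limma-voom, no filter, the filter at 1 CPM and the replicate block, and 2 with DESeq2 and with Sertoli marker scaling, which left Rhox5 and Rhox8. Leaving out 1 library each left 3 to 4 called higher, and 0 were called lower under any setting. With all 4 libraries kept, the call of Eppin by edgeR with TMM scaling was lost with DESeq2 (log2 fold change 0.43) and Sertoli marker scaling (0.23). That of Aard was lost with DESeq2 (0.26) and Sertoli marker scaling (0.066). Leaving out 1 library gave 0.34 to 0.53 for Eppin and 0.077 to 0.43 for Aard. Drd4 was not called under any setting and was lowest with Sertoli marker scaling (-0.21). Its sign changed with library size scaling (0.057), with no filter (9e-04) and between left-out libraries (-0.077 to 0.072). DESeq2 called 1454 genes higher and 1845 lower over the whole table, against 3169 and 3394 with edgeR. The causes were not tested.

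With the replicate number as a block, 3376 genes were higher and 3594 lower, and the calls of the 5 genes did not change. Deviations of same-numbered libraries correlated at 0.02 with 2 pairs, so the numbers are not known to pair the libraries. Other genes named above that were not called changed sign: with Sertoli marker scaling Gpd1 (-0.051), Tubb3 (-0.020), Wfdc6a (-0.035) and Deaf1 (-0.20), and with 1 library left out Sct (-0.54 to 0.13) and Deaf1 (-0.081 to 0.10). Among the 5 genes depth limits Drd4 most, with 45 to 55 counts per library.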
